A study of Mus musculus with 2 samples.

Results

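The TCF and LEF transcription factors are 4 genes in the mouse, Lef1, Tcf7, Tcf7l1 and Tcf7l2, and they were taken by their symbols from the 32285 genes of the count matrices. They were measured by single-nucleus RNA sequencing in 1 library of Normal brain and 1 library of brain taken 12 h after subarachnoid haemorrhage (SAH) by endovascular perforation of a cerebral artery. Each library was made from the pooled tissue of 3 male mice of 6 to 8 weeks, cut from the ipsilateral hemisphere between the start of the medial prefrontal cortex and the end of the centrolateral thalamic nucleus. The mice were C57BL/6J per the study's methods, which give an older age range, and no transgene is named for either group. The labels call the controls Normal where the study's methods describe sham surgery, so that the part played by anaesthesia and surgery cannot be told apart from that of the haemorrhage. The mice of a pool cannot be separated, and with 1 library in each group no difference could be tested against the variation between animals. The comparison asks which cell types carried these factors, and how their transcript levels stood 12 h after the bleed.

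TCF and LEF proteins bind DNA through an HMG box and act at the end of the canonical Wnt pathway. Without Wnt, they hold target genes down together with Groucho (TLE) corepressors, and when Wnt ligands stop the breakdown of beta-catenin, beta-catenin binds the same factors and turns the genes on. In the brain, LEF1 and TCF7L2 are known as factors of thalamic neurons that regulate excitability genes, TCF7L2 also acts in the maturation of oligodendrocytes, TCF7L1 is mostly a repressor in progenitors, TCF7 is best known from T cells, and endothelial cells use LEF1 in the Wnt signalling that keeps the blood-brain barrier.

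The Normal library held 12204 nuclei with a median of 7252.5 unique molecular identifiers (UMIs, each counting 1 captured RNA molecule), and the SAH library 18209 nuclei with a median of 8151. The study states more control than SAH nuclei, which is the reverse of the order in these files. The direction of every ratio given here rests on the labels of the 2 libraries. After limits on quality and removal of probable doublets, 10955 Normal and 15536 SAH nuclei were kept, and 53 of the kept barcodes occurred in both libraries. Nuclei were put into 11 classes by marker genes that exclude the 4 factors, and 3319 Normal and 4654 SAH nuclei met no gate. Class names ending in -like rest on those markers alone. A level is given in CPM (counts per 1e6 UMIs of the class), and brackets hold 95% intervals for counting error only, exact Poisson ones on a level and exact binomial ones on a share or a ratio. UMIs from the 3′ end of transcripts are not scaled to gene length, so levels are compared between classes and libraries and not between genes.

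Lef1 lies on chromosome 3 of GRCm38 (131110471 to 131224356, plus strand), Tcf7l2 on chromosome 19 (55741820 to 55933654, plus strand), Tcf7l1 on chromosome 6 (72626378 to 72789254, minus strand) and Tcf7 on chromosome 11 (52252371 to 52283014, minus strand). Of the annotated genes that overlap them, Gm43352 at the 5′ end of Lef1, on the opposite strand, had 30 Normal and 39 SAH UMIs in thalamic-like nuclei. Ppnr, a transcript within an intron of Tcf7l2 on the same strand, had 35 and 64. RefSeq lists alternative starts for both genes, and internal starts of TCF genes are known for shorter products without the beta-catenin binding end. The counts do not separate the starts. The 250 bases before the first and the last listed start are shown, since Lef1 and Tcf7l2 are the pair that the results below turn on and TCF factors can act on their own genes. Capitals mark the TCF core letters CTTTGA or CTTTGT on either strand.
Lef1, first start, chr3:131110047-131110296, plus strand: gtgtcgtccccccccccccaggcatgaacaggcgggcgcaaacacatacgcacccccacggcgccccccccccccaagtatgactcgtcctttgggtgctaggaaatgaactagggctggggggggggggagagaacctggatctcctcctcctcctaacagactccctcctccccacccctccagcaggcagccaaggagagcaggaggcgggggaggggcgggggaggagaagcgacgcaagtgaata
Lef1, last start, chr3:131156044-131156293, plus strand: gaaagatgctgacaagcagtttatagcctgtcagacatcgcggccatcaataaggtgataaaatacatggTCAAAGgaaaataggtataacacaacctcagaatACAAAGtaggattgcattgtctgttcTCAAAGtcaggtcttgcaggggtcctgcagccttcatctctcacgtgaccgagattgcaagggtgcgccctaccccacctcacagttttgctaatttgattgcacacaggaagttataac
Tcf7l2, first start, chr19:55741560-55741809, plus strand: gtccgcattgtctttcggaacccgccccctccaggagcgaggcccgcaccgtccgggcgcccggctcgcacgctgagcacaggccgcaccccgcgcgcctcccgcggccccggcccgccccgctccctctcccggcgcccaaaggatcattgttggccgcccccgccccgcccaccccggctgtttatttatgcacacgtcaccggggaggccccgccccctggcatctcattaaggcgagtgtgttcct
Tcf7l2, last start, chr19:55895071-55895320, plus strand: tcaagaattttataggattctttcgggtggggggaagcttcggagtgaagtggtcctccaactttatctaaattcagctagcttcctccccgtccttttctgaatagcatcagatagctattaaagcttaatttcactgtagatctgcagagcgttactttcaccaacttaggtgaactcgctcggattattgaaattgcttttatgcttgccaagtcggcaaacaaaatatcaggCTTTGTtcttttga
The window before the last Lef1 start held 3 matches, beginning 180, 146 and 120 bases before it, all on the minus strand. The window before the last Tcf7l2 start held 1, beginning 14 bases before it, and the windows before both first starts held 0. At least 1 match was found in 27.6% of 32851 RefSeq windows of this length, so a single match is common, and no match says only that these letters are not in the window.

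Lef1 was found mostly in thalamic-like nuclei. The thalamic-like class (336 Normal and 626 SAH nuclei with a UMI of the glutamate transporter gene Slc17a6 and other thalamic markers) held 86.2% of all Lef1 UMIs of the kept nuclei but 6.80% of all UMIs. By library it held 90.3% of the Lef1 UMIs in Normal and 82.4% in SAH. Nuclei that met no gate held 5.54% in Normal (243 UMIs) and 12.4% in SAH (589 UMIs). In Normal, Lef1 stood at 703 CPM [682, 726] in thalamic-like nuclei, from 3958 UMIs, and at 238 CPM [154, 351] in vascular-like nuclei, from 25 UMIs. Other Slc17a6 nuclei (10.4 CPM), subcortical GABA-like nuclei (8.59) and microglia-like nuclei (6.77) followed with intervals that overlapped. Cortical excitatory-like nuclei were at 0.807 CPM [0.544, 1.15], although they held 38.0% of all UMIs. The order in SAH again began with thalamic-like nuclei (375 CPM [363, 387]) and vascular-like nuclei (49.5 CPM [18.2, 108]).

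Tcf7l2 was spread over more classes. Thalamic-like nuclei held 57.5% of its UMIs, nuclei that met no gate 16.9%, mature oligodendrocyte-like nuclei 8.40% and microglia-like nuclei 7.94%. In Normal its level was 708 CPM [686, 731] in thalamic-like, 563 [344, 869] in astrocyte-like, 352 [248, 485] in vascular-like, 231 [207, 257] in microglia-like, 156 [87.2, 257] in precursor-like and 113 [103, 124] in mature oligodendrocyte-like nuclei. The intervals of all neighbours in this order overlapped, while that of thalamic-like nuclei lay above those of each class but the astrocyte-like one. Other Slc17a6 nuclei were at 57.8 CPM and subcortical GABA-like nuclei at 26.8, while the telencephalic neuron classes were at 1.05 to 3.37. In SAH the level in thalamic-like nuclei was 432 CPM [419, 444] and that in microglia-like nuclei came next, at 351 [328, 376].

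Tcf7l1 had its highest levels in astrocyte-like and vascular-like nuclei. It stood at 141 CPM [45.7, 328] in Normal and 104 [28.4, 267] in SAH astrocyte-like nuclei, and at 66.6 [26.8, 137] and 99.0 [51.1, 173] in vascular-like nuclei. Precursor-like nuclei (31.1 and 47.1 CPM) and mature oligodendrocyte-like nuclei (12.5 and 17.7) came next, and neighbours in this order had intervals that overlapped. Neurons of every class were at 3.79 CPM or less, and microglia-like nuclei at 0.677 and 0.843, from 3 UMIs in all. Of the 502 Tcf7l1 UMIs, mature oligodendrocyte-like nuclei held 39.2% and the far larger cortical excitatory-like class 22.7%. The libraries differed in this order, with 26.0% and 34.3% in Normal and 46.7% and 16.2% in SAH. Of all UMIs, these classes held 3.90% and 38.5% in Normal and 6.05% and 37.7% in SAH. Such shares depend on the size of a class in its library as well as on the level. Tcf7 was very low, with 222 UMIs over all 26491 kept nuclei, or 0.937 CPM. It had 0 UMIs in microglia-like nuclei of either library, which allows up to 2.03 CPM in Normal and 1.26 in SAH at 3 counts, and no class had more than 8.25 CPM, a value that rests on 1 UMI in SAH vascular-like nuclei.

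**Figure D1:**
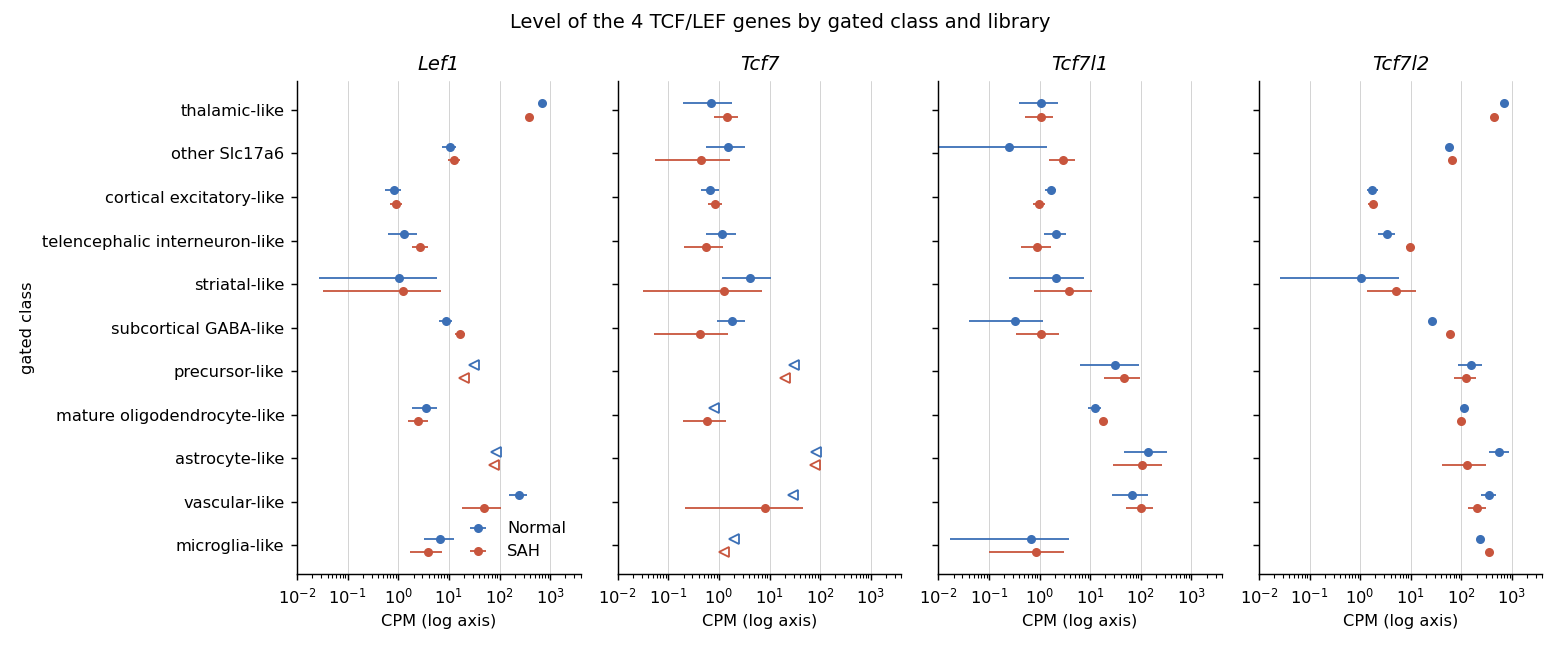
Level of each gene in CPM (log axis) in 11 gated classes, Normal in blue and SAH in red, with 95% Poisson intervals; open triangles mark the limit that a count of 0 allows (3 counts). Lef1 falls from 703 CPM in Normal thalamic-like nuclei to 0.807 in cortical excitatory-like nuclei, whereas Tcf7l2 is also at 96.4 CPM or more in every glial and vascular class.

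Both thalamic factors were lower in thalamic-like nuclei of the SAH library. Lef1 went from 3958 UMIs and 703 CPM in Normal to 3923 UMIs and 375 CPM in SAH, which puts SAH over Normal at -0.91 [-0.97, -0.84] on the log2 scale. Tcf7l2 went from 3985 UMIs and 708 CPM to 4517 UMIs and 432 CPM, a log2 ratio of -0.71 [-0.78, -0.65]. Tcf7l1 had 6 Normal and 11 SAH UMIs there and Tcf7 had 4 and 15, too few to compare. Thus 2 of the 4 members reached 100 UMIs over both libraries, both were lower in SAH by at least 1.5-fold and 0 were higher. Among all 9954 genes with 100 UMIs in these nuclei 12.6% were lower and 7.64% higher by that fold, and their median log2 ratio was -0.09. At or below the Lef1 ratio lay 3.92% of those genes, and at or below that of Tcf7l2 8.30%. Genes of like length stood a little higher, with medians of 0.05 over the 500 nearest in length to Lef1 and 0.10 over those nearest to Tcf7l2. Of these, 6 lay at or below Lef1 (113886 bp) and 4 at or below Tcf7l2 (191835 bp). Nuclei were pooled by class, so that fewer strongly expressing neurons and less RNA in each neuron cannot be told apart from the sums alone.

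Several thalamic markers stood lower in the same SAH nuclei. Of the 8 genes of the gate, Rgs16 (log2 ratio -1.75), Ramp3 (-0.98), Prkcd (-0.85) and Shox2 (-0.56) were lower. Slc17a6 (-0.18), Ntng1 (-0.21) and Plekhg1 (-0.01) were closer to the median of all genes, and Synpo2 was at 0.26. These genes chose the nuclei and are given as a description. The 8 summed to 7533.3 CPM in Normal and 6855.7 in SAH. Summed markers of mature oligodendrocytes stood at 83.4 CPM in Normal and 70.0 in SAH, those of microglia at 102 and 129, those of cortical neurons at 256 and 262, and those of oligodendrocyte precursors at 2056.6 and 2494.1. The precursor sum came mostly from Lhfpl3, Ptprz1 and Pcdh15, whereas the defining markers Pdgfra and Cspg4 had 2 to 6 UMIs in each library. Some smaller sums differed more in proportion, with committed precursors at 17.4 and 40.8, endothelium at 22.0 and 41.7 and mural cells at 10.8 and 17.6. These came mostly from Itpr2 (12.4 and 35.0 CPM), Tek (15.8 and 35.6) and Notch3 (8.18 and 12.8). Of the 11 endothelial markers, 4 had 0 UMIs in Normal and 4 in SAH, with Cldn5 and Cdh5 at 0 in both. Pecam1 had 8 UMIs in Normal and 17 in SAH, and Ptprb 17 and 26. Leptomeningeal cells (49.9 and 50.8), T cells (12.6 and 11.8) and GABA neurons (9.95 and 10.6) differed little. Subcortical GABA neurons (8.71 and 4.40) and ependyma or choroid (4.09 and 1.82) were lower in SAH. All 9 oligodendrocyte and all 8 microglial markers had a UMI in both libraries. The part of such RNA in the differences was not tested.

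The lower levels were seen across the range of single nuclei. The median nucleus had 630 CPM of Lef1 in Normal, with quartiles of 258 and 982, and 287 CPM in SAH, with quartiles of 88.0 and 548. For Tcf7l2 the medians were 668 and 412 CPM, with quartiles of 500 and 884 in Normal and 277 and 574 in SAH. The libraries overlapped widely for both genes, with the upper SAH quartile under the Normal median in each. No single nucleus decided the sums, since the one with the most held 71 of the 3958 Normal Lef1 UMIs and 46 of the 3985 Normal Tcf7l2 UMIs.

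**Figure D2:**
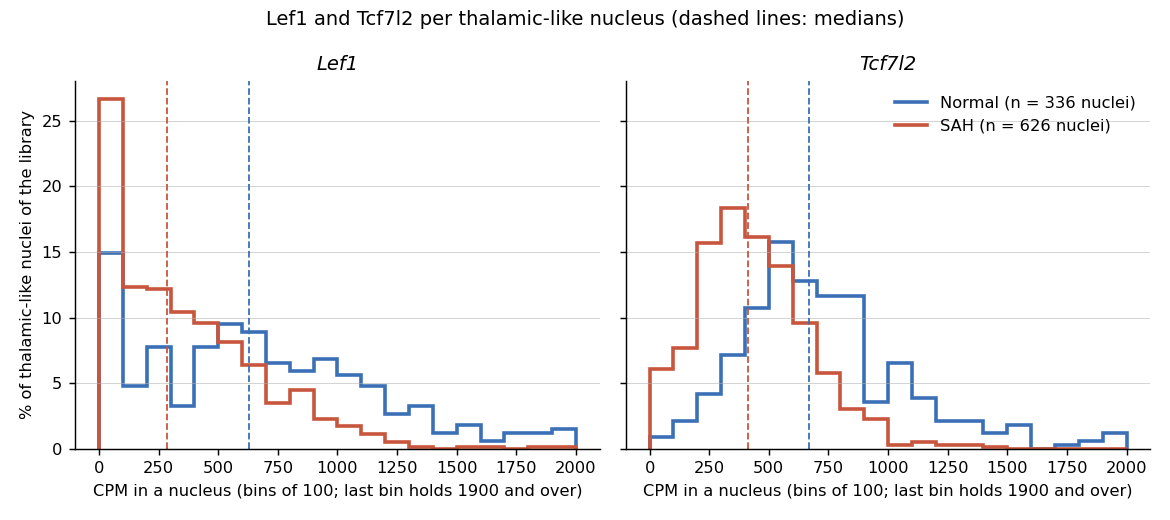
Share of thalamic-like nuclei (vertical axis, %) by the CPM of Lef1 or Tcf7l2 in the nucleus (horizontal axis, bins of 100 CPM, the last bin also holding higher values), with medians dashed. The SAH medians are 287 CPM for Lef1 and 412 for Tcf7l2, against 630 and 668 in Normal.

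Lef1 divided the thalamic-like nuclei and Tcf7l2 hardly did. Almost all lay in 2 clusters made without the 4 genes among the features. In the first (140 Normal and 306 SAH nuclei) Lef1 was at 343 CPM in Normal and 170 in SAH, and in the second (191 and 316 nuclei) at 933 and 543. Tcf7l2 was at 705 and 413 CPM in the first and at 725 and 447 in the second. The log2 ratio of SAH over Normal was -1.01 [-1.16, -0.86] and -0.78 [-0.85, -0.71] for Lef1, and -0.77 [-0.87, -0.67] and -0.70 [-0.78, -0.62] for Tcf7l2. Both factors were lower in SAH within each cluster.

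Sets of nuclei split by genes of thalamic divisions gave the same direction. Tnnt1, Necab1 and Calb2 are known to mark different groups of thalamic projection neurons, with Tnnt1 in first-order relay nuclei and Calb2 towards the midline. Nuclei with a Calb2 UMI had less Lef1 (341 CPM in Normal and 178 in SAH) than nuclei without one (753 and 398), and nuclei with a Tnnt1 UMI had more (898 and 498) than nuclei without one (656 and 363). In all 6 sets the ratio of SAH over Normal was negative, from -0.85 to -0.99 for Lef1 and from -0.52 to -0.85 for Tcf7l2. The 6 sets are 3 splits of the same nuclei, so their common direction is not repeated evidence. By tertile of the marker score, Lef1 in Normal was at 269, 738 and 917 CPM from the lowest to the highest, and in SAH at 194, 387 and 549. In that order the tertiles held 96, 101 and 139 Normal and 225, 219 and 182 SAH nuclei. Normal nuclei were thus most frequent in the highest tertile and SAH nuclei in the lowest. The part of this shift in the ratio of the whole class was not tested. The lowest tertile had the smallest Lef1 ratio, -0.47 [-0.65, -0.28], and the middle one the largest, -0.93 [-1.04, -0.82]. The 62 Normal and 76 SAH nuclei just under the cut of the gate had Lef1 at 11.3 and 11.7 CPM, whereas 3 and 1 nuclei lay just over it.

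**Figure D3:**
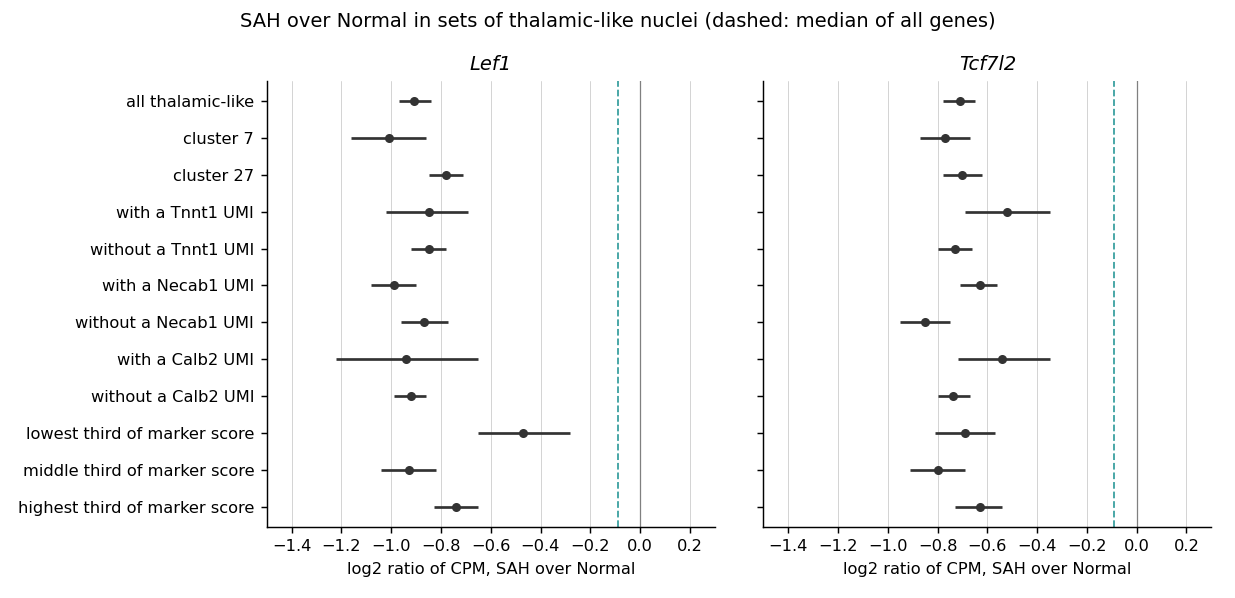
Log2 ratio of CPM, SAH over Normal, for Lef1 and Tcf7l2 in overlapping sets of the same thalamic-like nuclei (points, with 95% intervals for counting error). The dashed line is the median of all genes, -0.09. Every point lies under that line, from -1.01 to -0.47 for Lef1 and from -0.85 to -0.52 for Tcf7l2.

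Most thalamic-like nuclei carried both factors. In Normal 295 of 336 nuclei had UMIs of both Lef1 and Tcf7l2 (87.8% [83.8, 91.1]), 39 had Tcf7l2 alone, 0 had Lef1 alone and 2 had neither. In SAH 500 of 626 had both (79.9% [76.5, 82.9]), 108 had Tcf7l2 alone, 9 had Lef1 alone and 9 had neither. Depth sets such shares, so each nucleus was also thinned to 5000 UMIs, which left out 4 Normal and 11 SAH nuclei. The share with both was then 77.7% [72.8, 82.1] in Normal and 59.0% [55.0, 62.9] in SAH. Thinned shares for Lef1 were 80.7% and 66.7%, and for Tcf7l2 95.2% and 86.8%. For comparison, microglia-like nuclei, which should lack Lef1, had a Lef1 UMI in 0.896% of Normal and 0.722% of SAH nuclei at median depths of 1371.5 and 1796 UMIs, against 14876.5 and 15738.5 in thalamic-like nuclei.

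Joint detection was set beside the separate shares of the factors. At 5000 UMIs, 258 Normal nuclei had both, beside 255 if detection of one were independent of the other, an odds ratio of 2.67. In SAH these were 363 and 356, with an odds ratio of 1.54. Since most nuclei carried each factor, the joint count had little room to differ from that value. Across nuclei, Pearson's r of log2(CPM + 50) of Lef1 with Tcf7l2 was 0.24 over 336 Normal and 0.14 over 626 SAH nuclei. With the summed thalamic markers other than Slc17a6, r was 0.56 and 0.48 for Lef1. These nuclei share 1 library and vary in depth, so the values are descriptive. Outside the thalamic-like class co-detection was less frequent. Other Slc17a6 nuclei had both in 4 of 365 Normal and 9 of 387 SAH nuclei, subcortical GABA-like nuclei in 6 of 578 and 5 of 403. Vascular-like nuclei had both in 2 of 34 Normal and 3 of 39 SAH nuclei. Among nuclei that met no gate, 47 of 3319 Normal and 108 of 4654 SAH had both, with odds ratios of 22.6 and 11.0.

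**Figure D4:**
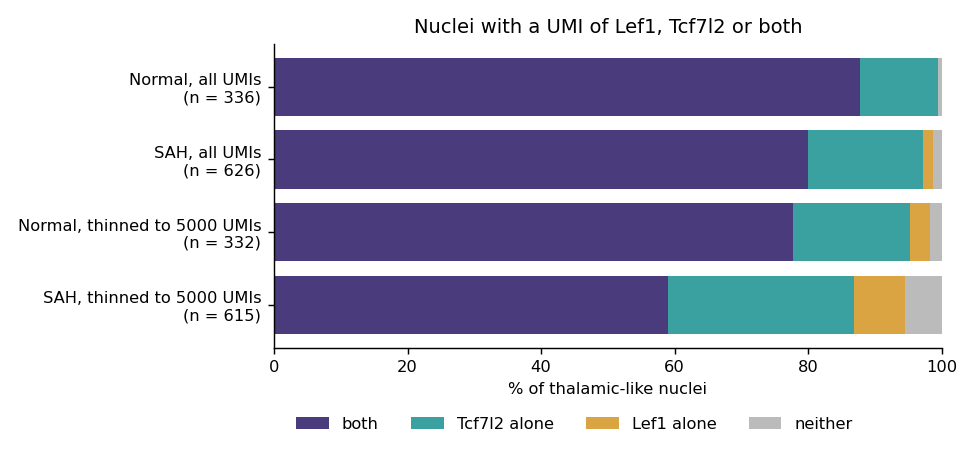
Share of thalamic-like nuclei (%) with a UMI of both genes, of Tcf7l2 alone, of Lef1 alone or of neither, with all UMIs and after each nucleus was thinned to 5000 UMIs. Nuclei with both make up 87.8% of Normal and 79.9% of SAH with all UMIs, and 77.7% and 59.0% after thinning.

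Neurons outside the thalamic-like class gave other values. In other Slc17a6 nuclei (365 Normal and 387 SAH) Lef1 was at 10.4 CPM [7.43, 14.0] and 12.4 [9.37, 16.2], and Tcf7l2 at 57.8 [50.6, 65.8] and 64.0 [56.7, 71.9], with log2 ratios of 0.26 [-0.35, 0.88] and 0.15 [-0.11, 0.40]. Few nuclei carried them, since 48 Normal and 84 SAH nuclei held all the Tcf7l2 UMIs. In subcortical GABA-like nuclei (578 and 403) both were higher in SAH. Tcf7l2 was at 26.8 CPM in Normal and 59.8 in SAH (log2 ratio 1.16 [0.88, 1.45]), and Lef1 at 8.59 and 16.4 (0.93 [0.41, 1.47]). The libraries drew this class from clusters in different shares, with 175, 99 and 202 Normal and 62, 163 and 129 SAH nuclei in its 3 main clusters. Within these the Tcf7l2 ratio was 1.39, 0.58 and 1.56 and that of Lef1 2.15, -0.90 and 2.53, so the direction for Lef1 was not shared. After thinning to 5000 UMIs the Lef1 ratio of the class was 1.70, and with doublets kept it was 0.53. With the stricter gate the ratio was 0.71 for Lef1 and 0.78 for Tcf7l2.

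Telencephalic neurons held traces. In cortical excitatory-like nuclei (2619 Normal and 3565 SAH) Tcf7l2 was at 1.75 and 1.80 CPM and Lef1 at 0.807 and 0.909. Tcf7l1 was at 1.67 CPM, from 62 UMIs, and 0.984, from 52, a log2 ratio of -0.76 [-1.32, -0.20]. In telencephalic interneuron-like nuclei Tcf7l2 went from 29 UMIs in 13 of 828 Normal nuclei to 108 UMIs in 51 of 987 SAH nuclei, or from 3.37 to 9.81 CPM (log2 ratio 1.54 [0.94, 2.19]). Of those UMIs, 18 in Normal and 79 in SAH came from 2 clusters that also hold subcortical GABA-like nuclei, so the values of the class rest on a small set of its nuclei. With classes taken from clusters the ratio was 0.44, and with a stricter gate 2.59. Striatal-like nuclei (85 and 77) had 1 and 4 Tcf7l2 UMIs and 1 Lef1 UMI in each library.

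In the oligodendrocyte lineage Lef1 and Tcf7 were absent or near absent. Precursor-like nuclei (27 Normal and 36 SAH) had 0 UMIs of either, which allows up to 31.1 and 20.2 CPM. Tcf7l2 was at 156 CPM [87.2, 257] and 121 [71.8, 192] there, from 15 and 18 UMIs, and Tcf7l1 at 31.1 and 47.1 CPM from 3 and 7. The 8 nuclei of each library with markers of committed precursors, the stage in which TCF7L2 is known to be active, held 5 and 4 of the Tcf7l2 UMIs, at 205 CPM [66.5, 478] and 115 [31.2, 293]. At these counts no difference between stages or libraries was detectable.

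Mature oligodendrocyte-like nuclei (1746 Normal and 3503 SAH) held the most UMIs of the glial classes. Tcf7l2 was at 113 CPM [103, 124] from 426 UMIs in Normal and 96.4 [89.9, 103] from 817 in SAH, a log2 ratio of -0.23 [-0.40, -0.06]. After thinning to 1000 UMIs the level was 87.8 CPM in Normal and 91.1 in SAH, a ratio of 0.05, and 7.77% and 7.98% of nuclei had a UMI. The ratio was -0.09 with equal weight of nuclei and -0.06 with classes taken from clusters. Relative to the 500 genes nearest in length, which had a median of 0.23, the ratio was further from 0, at -0.47. Tcf7l1 was at 12.5 CPM from 47 UMIs and 17.7 from 150, a ratio of 0.50 [0.02, 1.01]. In nuclei with a UMI of Opalin, a gene of myelinating oligodendrocytes, Tcf7l1 was at 8.77 CPM (18 UMIs in 15 of 831 nuclei) in Normal and 33.8 (74 UMIs in 47 of 761 nuclei) in SAH, a ratio of 1.95 [1.19, 2.78]. In nuclei with neither an Opalin nor an Il33 UMI, Tcf7l1 was at 22.2 and 13.6 CPM (-0.71 [-1.39, 0.02]) and Tcf7l2 at 168 and 95.8 (-0.81 [-1.06, -0.56]), but single nuclei weighed heavily. The top nucleus held 11 of the 25 Normal and 14 of the 63 SAH Tcf7l1 UMIs there, and 38 of the 189 Normal and 52 of the 443 SAH Tcf7l2 UMIs. In the other sets the Tcf7l2 ratio was close to 0, at 0.15 with an Opalin UMI, 0.04 with an Il33 UMI and -0.01 with a Hapln2 UMI.

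Vascular-like nuclei were few, 34 in Normal and 39 in SAH. The 10 Normal nuclei whose endothelial markers were highest held 24 of the 25 Lef1 UMIs of the class, in 7 nuclei and at most 5 in one, or 1284.0 CPM [823, 1910.6]. The 10 such SAH nuclei held 2 UMIs in 2 nuclei, or 71.4 CPM [8.65, 258], a log2 ratio of -4.17 [-7.29, -2.16]. The other 4 of the 6 SAH Lef1 UMIs lay in nuclei with leptomeningeal markers highest, at 43.2 CPM [11.8, 111]. Tcf7l2 in Normal was at 406 CPM [281, 567] in the 21 leptomeningeal-highest nuclei, from 34 of 37 UMIs, and at 53.5 [1.35, 298] in the endothelial-highest ones, from 1. In SAH it was at 227 [140, 346] in 28 nuclei, from 21 of 25 UMIs, and at 143 [38.9, 366], from 4. The intervals of these sets overlapped in both libraries, and the 3 Normal nuclei with mural markers highest had 2 Tcf7l2 UMIs. For the whole class the Tcf7l2 log2 ratio was -0.77 [-1.57, -0.00] with all UMIs and 0.08 after thinning to 1000. That of Lef1 was -2.27 [-3.84, -0.94], and -1.03 with classes taken from clusters (80 Normal and 63 SAH nuclei). Summed markers of telencephalic interneurons in this class were at 105 CPM in Normal and 2317.3 in SAH, and those of oligodendrocyte precursors at 466 and 2069.9. Those of astrocytes (1275.0 and 915), cortical neurons (352 and 132) and mature oligodendrocytes (333 and 231) were lower in SAH. The part of such RNA in the Lef1 values was not tested. Tcf7l1 had 7 and 12 UMIs. Astrocyte-like nuclei (14 and 12) had 20 Normal and 5 SAH UMIs of Tcf7l2 (563 CPM [344, 869] and 130 [42.3, 304]) and 0 of Lef1. These values rest on so few nuclei that they describe the pools only.

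Tcf7l2 was higher in microglia-like nuclei of the SAH library. It went from 341 UMIs in 1004 nuclei, or 231 CPM [207, 257], to 834 UMIs in 1247 nuclei, or 351 CPM [328, 376], a log2 ratio of 0.61 [0.42, 0.79]. It was the only member with 100 UMIs in this class and was higher by at least 1.5-fold, as were 15.7% of the 6516 genes compared, while 12.5% were lower. It was under that fold after thinning to 1000 UMIs (0.50) and when centred on the median of all genes (0.56). The 500 genes nearest in length had a median of 0.29, and relative to them the ratio of Tcf7l2 was 0.32. Nuclei with a Tcf7l2 UMI made up 26.5% [23.8, 29.3] and 41.1% [38.4, 43.9], and 20.6% [17.7, 23.7] and 26.3% [23.8, 28.9] after thinning to 1000 UMIs. The ratio was 0.64 [0.45, 0.83] in nuclei without a UMI of Mrc1, a gene of border macrophages, and 0.02 [-0.83, 0.89] in the 44 Normal and 44 SAH nuclei with one. It was 0.50 under 2000 UMIs and 0.75 at 2000 UMIs and over. Lef1 had 10 and 9 UMIs in this class.

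The rest of the Wnt pathway stood on both sides of 0 in thalamic-like nuclei, by gene lists chosen with earlier results known. Over all genes 12.6% were lower and 7.64% higher by 1.5-fold, the shares beside which the count of each list is read. Among 25 ligand and secretion genes, 7 reached 100 UMIs, of which 3 were lower by 1.5-fold, beside 12.6% of all genes, and 1 higher (median log2 ratio -0.58). Wnt9a was at 21.3 CPM in Normal and 7.17 in SAH (-1.57), and Wls, the carrier that brings Wnts to the cell surface, at 153 and 91.1 (-0.75). Wnt4, a ligand, was also at -0.75. Porcn, which acylates Wnts, was at 0.06, and Wnt5b, a ligand of the noncanonical branch, at 0.84. Among 21 receptor genes 9 were compared, with 0 lower, 1 higher (beside 7.64% of all genes) and a median of 0.20. Ror1, a noncanonical Wnt receptor, was at 23.8 CPM and 55.0 (1.21), Reck, a coreceptor for Wnt7, at 0.53, Fzd3 at -0.23 and Tspan12, a Frizzled partner, at -0.44.

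Inside the cell, the list of the beta-catenin destruction complex also holds beta-catenin and the dishevelled genes. Of its 18 genes 17 were compared, with 6 lower by 1.5-fold, beside 12.6% of all genes, 0 higher and a median of -0.28. They included Dvl1 (41.1 CPM in Normal and 18.7 in SAH, -1.13) and Dvl2 (-0.97), which pass on the Wnt signal. Beta-catenin itself, Ctnnb1, was at 73.6 and 69.4 CPM (-0.09). Tnks, which marks axin for removal, was at 0.33 and Btrc, which marks beta-catenin, at 0.28. Of 27 TCF partner genes 23 were compared, with 2 lower, a smaller share than the 12.6% of all genes, 0 higher and a median of -0.10, beside -0.09 for all genes. The corepressors Tle2 (-1.07) and Ctbp2 (-0.60) were lowest and Tnik, a TCF kinase (0.16), and Med12, a Mediator subunit (0.23), highest. The TCF relatives with an HMG box gave 1 lower of 7 compared, near the 12.6% of all genes, Sox11 (-0.96), with Sox5 at -0.17, Tox at 0.30 and Hbp1 at 0.41.

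Genes known to respond to TCF factors stood on both sides of 0. Of 15 feedback targets of Wnt signalling 6 were compared, with 2 lower, beside 12.6% of all genes, 0 higher and a median of 0.22. Axin2, a common readout of the pathway that also belongs to the complex above, was at 22.9 and 14.5 CPM (-0.66 [-1.01, -0.31]), and Notum, which inactivates Wnts and with Dkk2 (-0.09) made up the antagonists compared, at 10.5 and 6.69 (-0.65). Nkd1 was at 0.56 and Rnf43 at 0.32. Of 12 thalamic genes tied to TCF7L2 or LEF1 11 were compared, with 1 lower, a share near the 12.6% of all genes, 0 higher and a median of 0.00. Etv1, a transcription factor, was at 89.8 and 54.6 CPM (-0.72), Cacna1g, a T-type calcium channel of thalamic bursts, at 137 and 94.9 (-0.53), Foxp2 at 0.36 and Kcnh8 at 0.37. For scale, the stress hormone responsive genes Fkbp5 (1.32) and Zbtb16 (1.40) were the 2 of 15 stress genes compared, both higher, as were 7.64% of all genes.

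**Figure D5:**
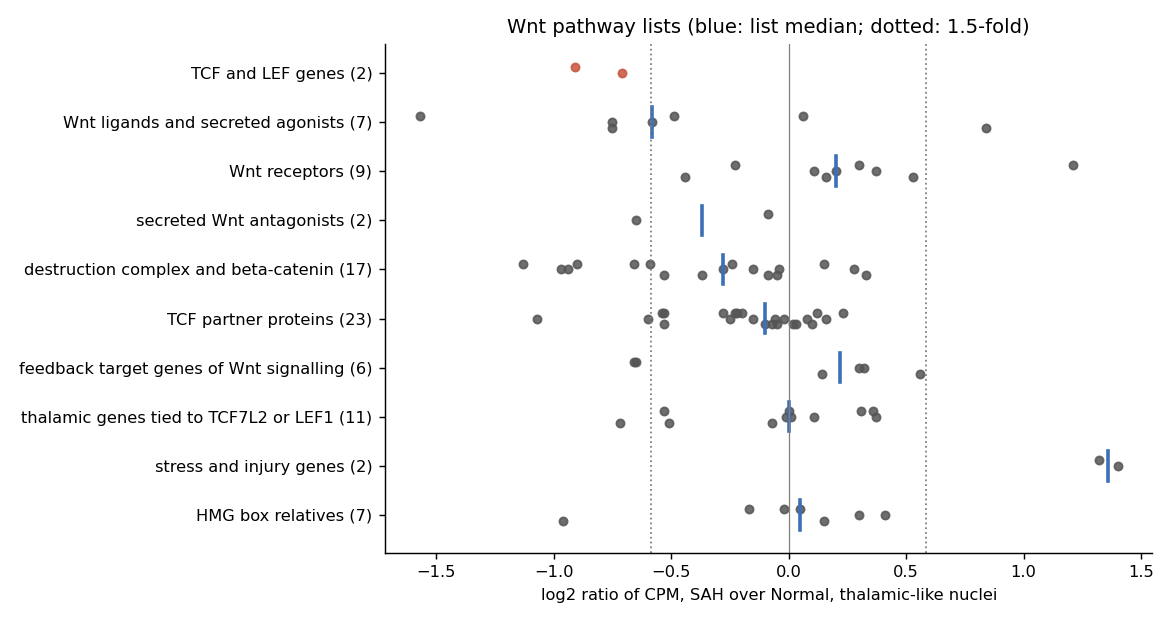
Log2 ratio of CPM, SAH over Normal, in thalamic-like nuclei for each gene with at least 100 UMIs (points), by list, with the number of genes in parentheses, the list median in blue and 1.5-fold dotted. Lef1 (-0.91) and Tcf7l2 (-0.71), in red, lie left of the medians of all lists, from -0.58 for ligands upward.

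Over the 11 classes, with the libraries summed and gate markers left out, the genes most like Lef1 by Pearson's r of log2(CPM + 1) among 15407 genes were Gm29478 (0.98), Gjc1 (0.95), Trpm6 (0.94), Osbpl2 (0.93) and Zic4 (0.93). Gm29478 and Zic4 are neighbours on chromosome 9, with 15125 bases between them. The genes most like Tcf7l2 were Rgs3 (0.92), Pdlim5 (0.90), Alg14 (0.89), Tmcc3 (0.88) and Vangl1 (0.87). Those most like Tcf7l1 were Plpp3 (0.98), Epas1 (0.95), Syne2 (0.95), Zhx2 (0.94) and Mlst8 (0.94), with Plpp3 a gene of astrocytes and Epas1 of endothelium. Those of Tcf7 (Acmsd, Ccl28, Braf, Htr6 and Sertad4, 0.93 to 0.95) rest on a member with hardly any UMIs, and with a minimum of 100 UMIs per gene in place of 200, only 1 of these 5 was among them. With the libraries summed, the classes of 26 astrocyte-like, 63 precursor-like and 73 vascular-like nuclei weigh in these values as much as the class of 6184 cortical nuclei.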

How the data were processed

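Nuclei were counted with the 10x Genomics 3′ kit. The authors aligned reads to mm10 with Cell Ranger, counting intronic reads. Its version is 5.0.0 in the submitters' notes and 6.1.2 in the file headers. The deposited files hold raw UMI counts per gene and nucleus, without normalization.

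Nuclei with 300 to 7000 genes, under 10% mitochondrial and under 3% haemoglobin UMIs and under 100000 UMIs were kept, and those with the highest Scrublet scores (Scanpy 1.11.5) were removed at 0.8% per 1000 nuclei. Classes were gated on summed markers per 10000 UMIs. The thalamic-like gate needed 1 Slc17a6 UMI and 15 per 10000 UMIs of 7 other markers, 3 of them detected. Clusters were made by the Leiden method (leidenalg 0.10.2) on 2000 genes and 25 components at a resolution of 2, both libraries together and without integration. Median UMIs per kept nucleus were 6868 in Normal and 7839.5 in SAH.

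UMIs were summed per class and library, and intervals at 95% are exact Poisson or binomial. With 1 library per group no test was run, and lists were read at 1.5-fold among genes with 100 UMIs. The interval code was tested on simulated data. Named genes were the 4 factors, the 2 highest and 2 lowest of each list and the 5 genes most like each factor. Ctnnb1 was added after its values were seen. Members and lists were chosen with earlier results of these data known. Positions came from GENCODE M21 and promoters from RefSeq, both GRCm38. Alternatives were other gates, filters, clusters, depths, weights and UMI minimums, and 2 were added after the data were seen, on gene length and on the nucleus with the most UMIs. Scripts ran in Python 3.11.15 with numpy 2.4.6, scipy 1.17.1 and pandas 2.3.3.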

Additional observations from a re-analysis of the deposited data

Results flagged for a closer look

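The log2 ratio of SAH over Normal had opposite signs in different classes for 3 of the factors, counting only classes with 100 UMIs of the factor and an interval away from 0. Lef1 was at -0.91 in thalamic-like nuclei and at 0.93 in subcortical GABA-like nuclei. Tcf7l1 was at -0.76 in cortical excitatory-like nuclei and at 0.50 in mature oligodendrocyte-like nuclei. Tcf7l2 was at -0.71 in thalamic-like and -0.23 in mature oligodendrocyte-like nuclei, and at 1.54 in telencephalic interneuron-like, 1.16 in subcortical GABA-like and 0.61 in microglia-like nuclei. Some of these values changed with the nuclei taken, with depth or with the genes they were set against. In 1 of the 3 main clusters of subcortical GABA-like nuclei the Lef1 ratio was -0.90 [-1.75, -0.06]. The Tcf7l2 ratio was 0.05 in mature oligodendrocyte-like nuclei after thinning to 1000 UMIs, and -0.47 relative to genes of like length. In telencephalic interneuron-like nuclei it was 0.44 with classes taken from clusters. With 1 library in each group none of these differences between classes was tested.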

How the results depend on the processing

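No paired analysis was possible because each group had 1 library. In thalamic-like nuclei the log2 ratio was negative under all 11 alternatives for each factor, from -0.96 to -0.82 for Lef1 and from -0.82 to -0.63 for Tcf7l2. It was -0.84 for Lef1 with the stricter gate, -0.82 and -0.63 for Lef1 and Tcf7l2 when centred on the median of all genes, and -0.82 for Tcf7l2 relative to genes of like length. In microglia-like nuclei Tcf7l2 kept a positive ratio, from 0.32 (relative to genes of like length, an alternative added after the data were seen) to 0.66, and was under 1.5-fold there, after thinning to 1000 UMIs (0.50) and when centred on the median of all genes (0.56). After thinning to 1000 UMIs the Tcf7l2 ratio changed sign to 0.05 in mature oligodendrocyte-like and 0.08 in vascular-like nuclei, and the cause was not tested. In mature oligodendrocyte-like nuclei it was -0.47 relative to genes of like length.

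Levels in thalamic-like nuclei moved with the nuclei admitted. In Normal, Lef1 was at 798 CPM with the stricter gate, 656 with doublets kept, 675 with no filter and 661 by clusters, and Tcf7l2 at 731, 675 and 683 under the first 3 of these. In SAH, Lef1 was at 446 CPM with the stricter gate, 341 with doublets kept and 343 by clusters, and Tcf7l2 at 403 with doublets kept. The share of nuclei with both factors was 95.7% in Normal and 92.3% in SAH with the stricter gate, 80.4% and 70.3% by clusters and 77.7% and 59.0% thinned to 5000 UMIs. Among the lists, a minimum of 50 UMIs gave 5 of 10 ligand genes lower. A minimum of 200 gave 0 of 18 partners and 1 of 4 feedback targets lower and left 0 antagonists to compare. Centring on the median of all genes gave 2 of 9 receptors higher, 0 of 2 antagonists and 1 of 23 partners lower. Of 6 feedback targets it gave 0 lower and 1 higher. The shares over all genes given above hold for a minimum of 100 UMIs without centring. They cannot be set beside these counts, which show only how the lists depend on the settings. Of the 221 alternative values, 181 lay within the counting interval of the reported level, share or ratio or, for a count of genes, within 1.5 times of it. For these libraries, the small number of nuclei limits all factors in precursor-like, astrocyte-like and vascular-like nuclei, and the variation between mice is unknown. Tcf7 was low in the largest class, at 0.778 CPM [0.606, 0.982] in cortical excitatory-like nuclei of both libraries, from 70 UMIs.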
